A study of Mus musculus with 11 samples.

Results

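The genes described here are interferon regulatory factors, components of interferon receptors and signalling, and genes that interferons induce. They were taken by gene symbol from a list of 53 genes, of which 52 were in the tables of 15453 genes. The remaining gene, the oligoadenylate synthetase Oas3, was not analysed here. The 52 genes fell into 12 regulators and receptors, 25 targets best known for type I interferons and 15 targets best known for interferon gamma, although many of them answer both. Epididymal white adipose tissue (eWAT), the visceral fat pad beside the epididymis, was taken from 11 male C57BL/6 mice (C57BL/6J in the study's methods) aged 16 weeks that had eaten a high fat diet since 8 weeks of age. The 6 wildtype mice (WT) carried 2 intact alleles of mesoderm specific transcript (Mest). The 5 pKO mice had inherited from the father an allele without exon 3, made with a germline Ella-cre that was later bred out, and kept an intact maternal allele that imprinting keeps nearly silent. The deletion was present in every tissue and not in fat alone, and the mice came from a larger cohort in which the WT mice chosen were fatter, so genotype and fatness cannot be told apart.

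Interferons are secreted proteins that warn tissue of infection. Type I interferons bind a receptor built from Ifnar1 and Ifnar2 and act through a complex that includes Stat2 and Irf9 on a DNA element called the interferon-stimulated response element (ISRE), whereas interferon gamma binds Ifngr1 and Ifngr2 and acts on the gamma-activated sequence (GAS). Interferon regulatory factors (Irf) bind the ISRE and related elements, and Irf8 is also a lineage factor of macrophages and dendritic cells, cells that gather in the fat of obese mice.

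Each transcript was counted by serial analysis of gene expression (SAGE), which reads a tag of 26 bases starting at the cut site of NlaIII closest to the 3′ end. The deposited values, called normalised tags here, are whole tags divided by a size factor for the library, and 1 tag was worth between 0.836 and 1.19. Total tags assigned to genes lay between 9659740 and 14825727 in WT and between 11320342 and 14626803 in pKO mice, and the 52 genes took between 0.150% and 0.235% of them. Libraries of a genotype all differed by more than counting noise (lowest chi-square per degree of freedom 19.0), so none was counted as a repeat of another. The WT mice had 25107 ± 2672 (SD, n = 6) normalised tags of Mest itself. In pKO mice it was 1663 ± 566 (SD, n = 5), or 6.63% of the WT mean, with no overlap. By quantitative PCR the study found Mest undetectable in eWAT of pKO mice, with RNA of the mice used here among its samples. What the remaining tags stand for was not tested. SAGE reads tags towards the 3′ end and the site of the Mest tag was not looked up, so the tag value checks the transcript level and not the deletion.

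The tag predicted for a gene decides what its value counts, so the tags of the 4 genes with a genotype difference are given first. They are followed by 2 tags that other genes also hold. Each is from the principal GENCODE M21 transcript (GRCm38), and capitals mark the NlaIII site.
Irf8: CATGtcaccttccacctgcctcaagg
Ubd: CATGgctgactacaacatcaagagtg
Psmb10: CATGgaggtggaatgaagtggcctga
Zbp1: CATGgggaggagaggcgggggtcaca
Ifnar1: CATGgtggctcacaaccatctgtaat
Oas3: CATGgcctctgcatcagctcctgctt
The tags of Irf8 and Zbp1 lie in the 3′ untranslated region (UTR), 113 and 153 bases from the transcript end, and those of Ubd and Psmb10 lie in the coding sequence, 449 and 71 bases from the end. No other annotated gene holds any of these 4 tags. Of the 52 genes, 45 had a full tag found in no other gene and 2 (Ifnar1 and Gbp6) had one that other genes also hold. In 5 genes (Irf3, Ddx58, Oas1a, Gbp3 and Psmb8) the last site lay within 17 bases of the end, too close for a full tag, and which site or shorter tag their values count was not tested. The Ifnar1 tag is the last tag of 90 other genes and its value of 113 ± 14.2 (SD, n = 6) in WT mice is uncertain for that reason. The Oas3 tag is the last tag of 14 other genes.

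In pKO mice 4 of the 52 genes were lower and 0 were higher at an unadjusted p of at most 0.05 (limma on log2(value + 1)). The 4 were Irf8, Ubd (ubiquitin D, also called FAT10, a ubiquitin-like protein that marks proteins for the proteasome), Psmb10 (a catalytic subunit of the immunoproteasome) and Zbp1 (a sensor of Z-form nucleic acid). Over all genes tested, 5.35% were lower and 4.2% were higher by the same rule, so the 7.69% of these genes called lower stood close to the background. With edgeR or DESeq2 on the recovered tags 1 gene, Ifi44, was called higher. With library totals in place of size factors the all-gene counts moved from 827 lower and 649 higher to 1015 and 463, and 5 of the 52 were lower. None of the 52 had a Benjamini-Hochberg adjusted p of at most 0.1 over all genes (limma), a level that 0.0324% of all genes reached, whereas DESeq2 placed Irf8 and Ubd below it. Without pKO mouse 2 limma did so too (adjusted p = 0.085 and 0.018), and Irf1, Ifi44 and Rsad2 were then called higher. For 2 of the 52 (Irf8 and Psmb10) every pKO value lay below every WT value, and for 0 the reverse held, against 0.673% of all genes apart with pKO lower and 0.569% with pKO higher. The study's own test on these same 11 mice had placed Irf8 and Ubd on its list at an adjusted p of at most 0.1. Psmb10 and Zbp1 were not on that list but on its longer one, at an unadjusted p of at most 0.05. The values here are therefore not independent evidence of the direction of these 4 genes. Tissue RNA cannot tell fewer cells of a type from less RNA per cell, which applies to every difference given here.

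**Figure D1:**
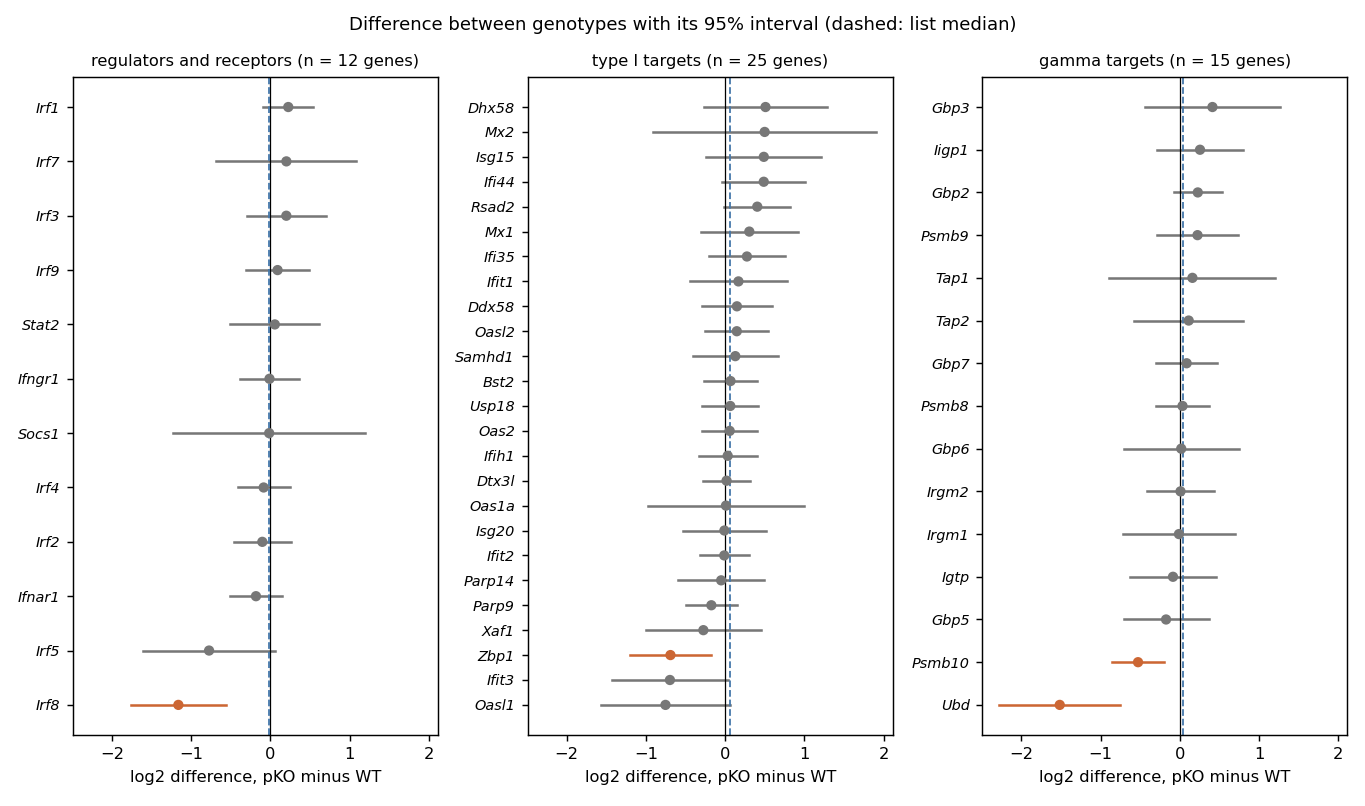
Difference in log2(value + 1) between pKO and WT mice for the 52 genes in 3 lists, with points for the limma estimate and lines for its 95% interval; orange marks an unadjusted p of at most 0.05, the solid line is 0 and the dashed line is the median of the list. The 4 orange genes lie below 0 and most others lie near it, with list medians between -0.01 and 0.06.

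Among the regulators, Irf8 was the one called lower. Its normalised tags ran from 239 to 304 in WT mice with a median of 256, and were 67.8, 183, 98.7, 229 and 74.7 in pKO mice 1 to 5. Every pKO mouse was below the lowest WT mouse, by a wide margin in mice 1, 3 and 5 and narrowly in mouse 4. The log2 difference was -1.16 (95% interval -1.76 to -0.56; limma, adjusted p = 0.27; exact two-sided permutation test, p = 0.0022, the smallest that 6 mice against 5 allow). The means were 262 ± 24.2 (SD, n = 6) and 131 ± 71.8 (SD, n = 5). Irf8 lies on chromosome 8 from 120736358 to 120756694 on the plus strand of GRCm38. The spread was also unequal, with a standard deviation of log2 values of 0.13 in WT and 0.78 in pKO mice.

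The other 7 Irf genes did not pass the test. Irf5, a macrophage factor downstream of Toll-like receptors, ran from 55.0 to 87.8 in WT mice and was 42.1, 77.9, 11.2, 53.8 and 66.5 in pKO mice 1 to 5, a log2 difference of -0.77 whose interval reached from -1.61 to 0.06 (limma, adjusted p = 0.55; exact permutation test, p = 0.048). Without mouse 3, the one at 11.2, the difference was -0.32. Without pKO mouse 2 it was -0.99 and without pKO mouse 5 it was -0.93, and Irf5 was then called lower. The study's lists from these mice held Irf5 too. Irf1, induced by interferon gamma and a driver of antigen-processing genes, had a log2 difference of 0.23 (interval -0.09 to 0.54), and Irf3, which responds to viral nucleic acid before interferon is made, one of 0.20 (-0.29 to 0.70). Irf7, the factor that amplifies type I interferon output, ran from 63.1 to 368 in WT mice with a median of 314, and was 185, 215, 265, 467 and 369 in pKO mice 1 to 5, so the genotypes overlapped throughout (log2 difference 0.20, interval -0.68 to 1.09). The sign rested on WT mouse 4, at 63.1, without which the difference was -0.19. Irf9, the DNA-binding part of the type I complex, ran from 256 to 457 in WT mice with a median of 386, and was 382, 358, 318, 355 and 584 in pKO mice 1 to 5 (0.09, -0.31 to 0.49). Irf2 and Irf4 had differences of -0.10 and -0.09, with intervals from -0.46 to 0.26 and from -0.41 to 0.24.

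Irf8 was also set beside each other Irf gene within the same mouse. These ratios were chosen after Irf8 was seen to be lower, so they describe its values against its family and are no test. The log2 ratio of Irf8 to Irf1 averaged -2.57 ± 0.23 (SD, n = 6) in WT mice and -3.95 ± 0.95 (SD, n = 5) in pKO mice. For the ratios to Irf1, Irf2, Irf3, Irf4, Irf7 and Irf9, 4 of the 5 pKO mice were below the lowest WT mouse, and the means differed by -1.06 to -1.39. The last site of Irf3 leaves no full tag, and what its value counts was not tested. The ratio to Irf5 averaged 1.82 ± 0.19 (SD, n = 6) in WT mice and 1.43 ± 1.14 (SD, n = 5) in pKO mice, of which 3 were below the lowest WT mouse.

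None of the 4 receptor and signalling genes among the 12 was called. Ifngr1, the ligand-binding chain of the interferon gamma receptor and the most abundant of the 12 regulators and receptors, ran from 1693 to 2538 in WT mice with a median of 2069, and was 1572, 1532, 2355, 2665 and 2499 in pKO mice 1 to 5. Its log2 difference was -0.01, with an interval from -0.38 to 0.36. Stat2 ran from 46.6 to 124 in WT mice with a median of 78.5, and was 66.1, 61.9, 75.3, 98.8 and 103 in pKO mice 1 to 5 (0.06, interval -0.50 to 0.62). Socs1, an inhibitor of interferon signalling, ranged from 24.1 to 79.5 in WT and from 6.87 to 98.2 in pKO mice, and an interval from -1.23 to 1.20 shows how little its mean could tell. Ifnar1 differed by -0.18 (-0.51 to 0.15). Over the 12 regulators and receptors the median difference was -0.01, against -0.003 over all genes.

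**Figure D2:**
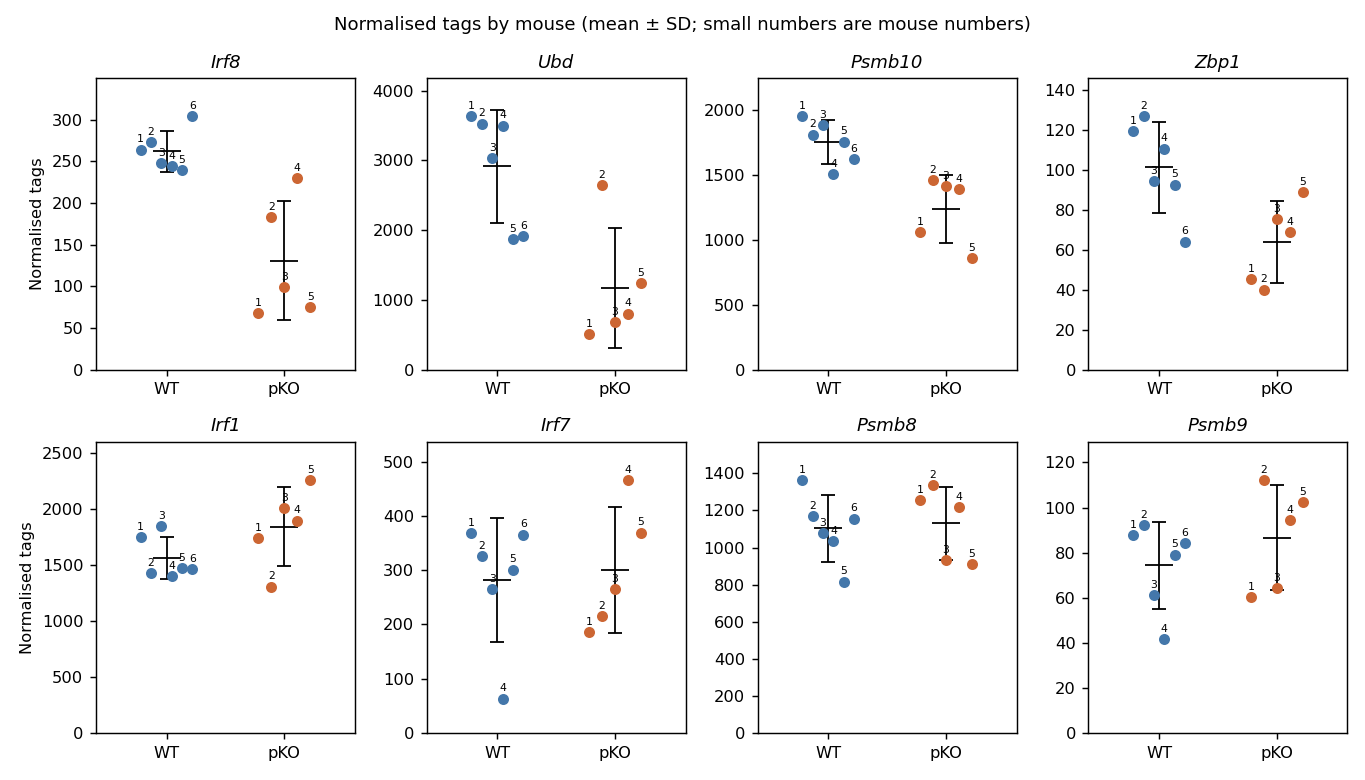
Normalised tags in each WT (blue, n = 6) and pKO mouse (orange, n = 5) for the 4 genes lower in pKO mice (top) and for Irf1, Irf7, Psmb8 and Psmb9 (bottom); black marks are the mean ± SD and small numbers name the mice. Irf8 and Psmb10 show no overlap, pKO mouse 2 lies inside the WT range for Ubd, and the 4 lower panels overlap.

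Among the interferon gamma targets, Ubd was the most abundant in WT mice and had the largest difference. Its normalised tags ran from 1872 to 3632 in WT mice with a median of 3268, and were 505, 2642, 686, 801 and 1238 in pKO mice 1 to 5. Mice 1, 3, 4 and 5 were below every WT mouse, and mouse 2 was inside the WT range, far above the pKO median of 801. The log2 difference was -1.52 (interval -2.28 to -0.75; limma, adjusted p = 0.27; exact permutation test, p = 0.0087), and the WT mean was 2.48 times the pKO mean. Without pKO mouse 2 the difference was -1.87 (limma, adjusted p = 0.018). Ubd lies on chromosome 17 from 37193892 to 37196095 on the plus strand.

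The 3 catalytic subunits of the immunoproteasome, which replaces the standard proteasome in cells exposed to interferon gamma, gave a call for Psmb10 and none for the other two. Psmb10 ran from 1505 to 1952 in WT mice with a median of 1785, and was 1059, 1459, 1416, 1393 and 860 in pKO mice 1 to 5, each below the lowest WT mouse. Its log2 difference was -0.53 (interval -0.85 to -0.20; limma, adjusted p = 0.36; exact permutation test, p = 0.0022). Psmb8 ran from 816 to 1366 in WT mice with a median of 1118, and was 1254, 1336, 933, 1216 and 911 in pKO mice 1 to 5, a difference of 0.03 (interval -0.30 to 0.36). Psmb9 ran from 41.8 to 92.1 in WT mice with a median of 81.7, and was 60.1, 112, 64.1, 94.4 and 102 in pKO mice 1 to 5, a difference of 0.22 (-0.29 to 0.74). The intervals of Psmb8 and Psmb9 both overlapped that of Psmb10.

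Ratios within each mouse, chosen after these values were seen, describe the same pattern and are no test of it. The log2 ratio of Psmb10 to Psmb8 averaged 0.68 ± 0.24 (SD, n = 6) for WT, against 0.12 ± 0.32 (SD, n = 5) for pKO mice, and 4 of the 5 pKO mice were below the lowest WT mouse. The last site of Psmb8 leaves no full tag, and what its value counts was not tested. The mean ratio of Psmb10 to Psmb9 differed by -0.75 and that of Psmb8 to Psmb9 by -0.19. Psmb8 and Psmb9 lie next to the peptide transporter genes Tap1 and Tap2 in the major histocompatibility complex on chromosome 17, and Psmb10 is on chromosome 8 from 105935735 to 105938444. Tap1 ranged from 78.2 to 352 in WT and from 58.3 to 318 in pKO mice, and Tap2 from 83.5 to 296 and from 124 to 315, with differences of 0.16 (interval -0.89 to 1.20) and 0.11 (-0.58 to 0.80).

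The 9 interferon-inducible GTPases (Gbp2, Gbp3, Gbp5, Gbp6, Gbp7, Igtp, Irgm1, Irgm2 and Iigp1), which attack vacuoles that hold microbes, gave no call in either direction. Their differences ran from -0.17 for Gbp5 to 0.41 for Gbp3 with a median of 0.02, and 7 of the 9 were within 0.25 of 0. Iigp1 and Irgm2 were the most abundant, at 1115 ± 434 and 1034 ± 220 in WT (SD, n = 6) and 1290 ± 324 and 1055 ± 287 in pKO mice (SD, n = 5). The pKO mice differed widely among themselves. Mouse pKO 1 was the lowest of all 11 mice in 5 of the 9 genes and pKO 4 the highest in 4. Gbp6 was 81.6, 189, 293, 380 and 361 in pKO mice 1 to 5 and ran from 170 to 317 in WT mice, and Irgm1 was 75.5, 210, 195, 356 and 341 against 175 to 280. The pKO range of each of these 2 genes enclosed the whole WT range.

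Of the 25 type I targets, Zbp1 was lower in pKO mice and none was higher. Zbp1 ran from 64.1 to 127 in WT mice with a median of 103, and was 45.5, 40.1, 75.3, 68.8 and 89.0 in pKO mice 1 to 5. Mice 1 and 2 were below every WT mouse and the other 3 lay between the lowest and the second lowest WT mouse. The log2 difference was -0.69 (interval -1.20 to -0.18; limma, adjusted p = 0.40; exact permutation test, p = 0.026). Zbp1 lies on chromosome 2 from 173206612 to 173218923 on the minus strand. It was listed with the nucleic acid sensors, whose other members Ifih1, Ddx58 and Dhx58 had differences of 0.03, 0.15 and 0.51 with intervals that include 0.

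The rest of the type I targets lay around 0 with wide intervals for the scarce genes. Bst2, a membrane protein that tethers budding virus and the most abundant of the 25, ran from 1223 to 2046 in WT mice with a median of 1542, and was 1505, 1333, 1524, 1937 and 2038 in pKO mice 1 to 5 (difference 0.07, interval -0.26 to 0.40). The 3 Ifit genes, which bind viral RNA, differed by 0.17 for Ifit1, -0.01 for Ifit2 and -0.70 for Ifit3. Ifit3 was 502, 307, 686, 123 and 538 in pKO mice 1 to 5 against 508 to 685 in WT mice, and its interval from -1.43 to 0.04 included 0 (limma, adjusted p = 0.54). Without pKO mouse 4 the difference was -0.30. Ifit3 was called lower in 5 of 22 alternative settings, among them leaving out pKO mouse 1, 3 or 5. In pKO mouse 4, where Ifit3 was lowest at 123, Ifit1 stood at 229 against 113 to 184 in WT mice, so these neighbouring genes parted within that mouse. Isg15, a ubiquitin-like protein strongly induced by type I interferons, was scarce, from 3.56 to 13.6 in WT mice with a median of 10.1 and at 24.04, 10.3, 12.2, 10.6 and 11.3 in pKO mice 1 to 5. Mx2 was scarcer still, from 0 to 3.88 in WT mice and at 0, 3.44, 1.02, 13.2 and 6.14 in pKO mice 1 to 5. Such values stand for a handful of tags, and the interval for Mx2 ran from -0.91 to 1.91, so no difference was detected.

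The largest positive differences among type I targets belonged to Dhx58 (0.51), Mx2 (0.50), Isg15 (0.49), Ifi44 (0.49) and Rsad2 (0.41), each with an interval that includes 0. Rsad2, which encodes the antiviral enzyme viperin, ran from 97.5 to 207 in WT and from 178 to 229 in pKO mice (limma, adjusted p = 0.53; exact permutation test, p = 0.074). Ifi44 was 68.7, 55.0, 73.3, 123 and 149 in pKO mice 1 to 5 against 46.6 to 68.5 in WT mice, so pKO mice 4 and 5 stood far above the rest. The 4 oligoadenylate synthetases with values, which make the activator of an RNA-degrading enzyme, had differences of 0.01 (Oas1a), 0.06 (Oas2), -0.75 (Oasl1) and 0.15 (Oasl2). Oasl1 was 7.73, 18.3, 18.3, 22.9 and 5.12 in pKO mice 1 to 5 and ran from 13.5 to 32.9 in WT mice, with an interval from -1.57 to 0.07.

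Set side by side, the type I and gamma lists differed little in their centre and more in their lowest members. The median difference was 0.06 over the 25 type I targets, 0.03 over the 15 gamma targets and -0.003 over all genes. Differences above 0 numbered 17 of 25 and 10 of 15. The type I list reached from -0.75 to 0.51 and the gamma list from -1.52 to 0.41, and the lower end of the gamma list was Ubd and Psmb10. Without WT mouse 5 or pKO mouse 5, or with library totals in place of size factors, the gamma median fell just below 0 (-0.03, -0.005 and -0.001), so the sign of that median was not stable.

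**Figure D3:**
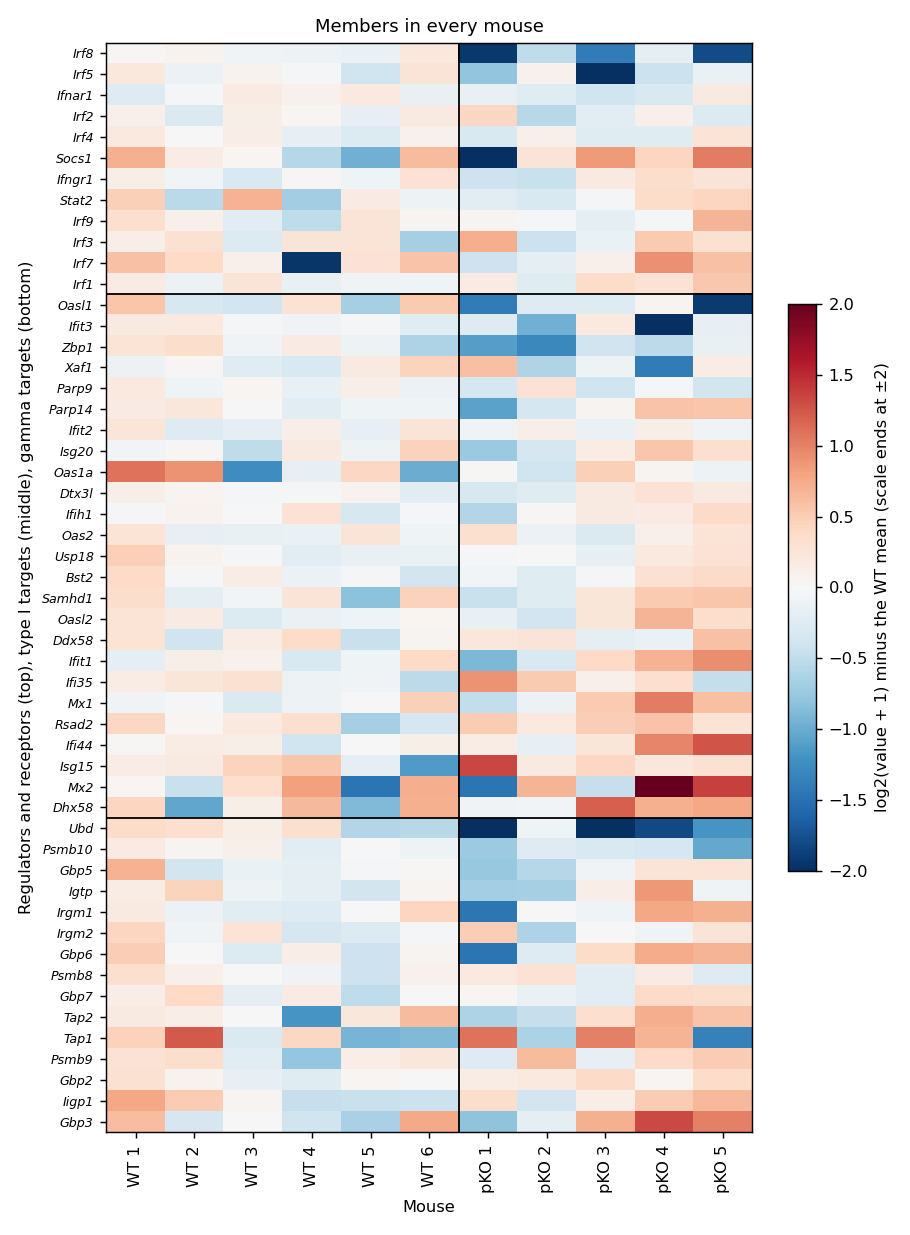
Each of the 52 genes (rows) in each of the 11 mice (columns), as log2(value + 1) minus the mean of the 6 WT mice; red is above and blue below that mean, with colours ending at ±2. Rows are ordered within each list by the difference between genotypes, so Irf8, Oasl1 and Ubd head their lists. Colours are more saturated in pKO mice 1, 4 and 5 than in WT mice. Centring on the WT mice leaves the genotype difference in the pKO columns, so saturation does not compare spread.

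Single mice stood apart within both genotypes. The log2 values were centred per gene over the 11 mice and averaged over each list. For the GTPases the averages were 0.38, 0.02, -0.12, -0.23, -0.33 and 0.06 in WT mice 1 to 6 and -0.49, -0.33, 0.11, 0.50 and 0.43 in pKO mice 1 to 5. For the type I targets they were 0.20, -0.03, -0.08, 0.04, -0.23 and -0.03 in WT mice and -0.24, -0.17, 0.08, 0.22 and 0.23 in pKO mice. Mice pKO 4 and pKO 5 were high and pKO 1 and pKO 2 low in both lists. Irf8 and Ubd followed that order only in part. Irf8, like the GTPases, was lowest in pKO mouse 1 and, among pKO mice, highest in pKO mouse 4. In pKO mouse 5, however, Irf8 was second lowest while the GTPases were high. Ubd was also lowest in pKO mouse 1, but pKO mouse 2 had the highest Ubd of the pKO mice with low GTPases. The 52 genes had the highest value of all mice 14 times in pKO 4, 9 times each in WT 1 and pKO 5, and the lowest value 15 times in pKO 1 and 9 times in WT 4. The standard deviation of log2 values was larger in pKO than in WT mice for 37 of the 52 genes (71.2%), against 67.9% of all genes, a share close to the background.

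**Figure D4:**
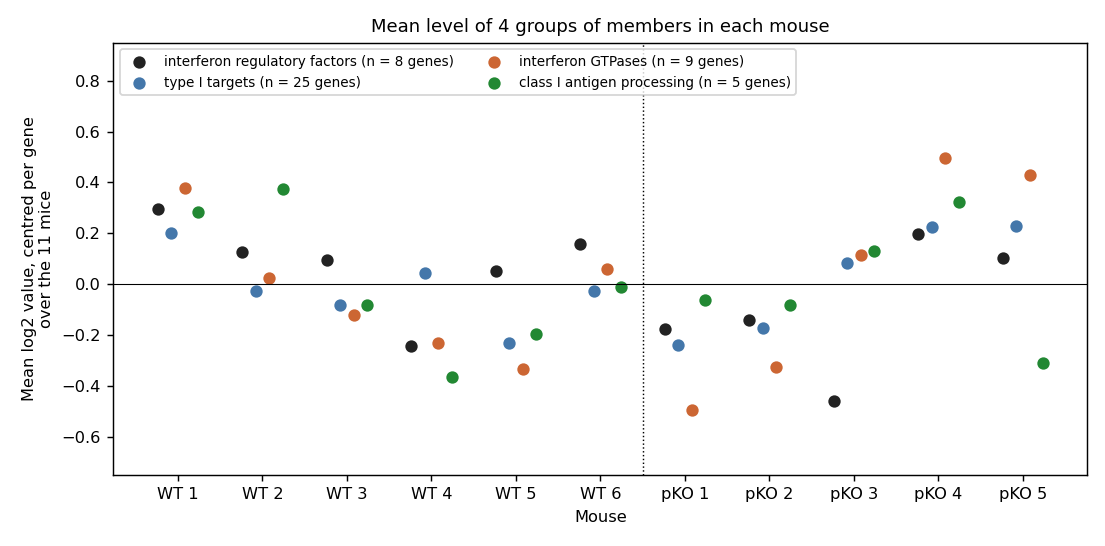
Mean of log2(value + 1), centred per gene over the 11 mice, for 4 groups of genes in each mouse, with no error bars because each point is 1 mouse. The GTPases (orange) run from -0.49 in pKO 1 to 0.50 in pKO 4, a span that encloses that of the WT mice.

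The ISRE and the GAS can be looked for as letters near the start sites of these genes. Promoters of 41 of the 52 genes were found in RefSeq (GRCm38.p6), each with 250 bases before and 50 after a transcript start. The 250 bases upstream are given for the 3 genes lower in pKO mice that had an entry, and for Bst2 as a type I target with both motifs, with capitals marking letters of a GAS or an ISRE.
Irf8, chr8:120736108-120736357, plus strand: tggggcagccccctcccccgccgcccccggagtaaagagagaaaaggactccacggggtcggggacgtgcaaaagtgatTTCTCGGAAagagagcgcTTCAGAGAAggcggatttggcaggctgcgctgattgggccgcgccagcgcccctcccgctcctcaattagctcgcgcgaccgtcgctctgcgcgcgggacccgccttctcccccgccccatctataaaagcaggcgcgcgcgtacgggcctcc
Ubd, chr17:37193642-37193891, plus strand: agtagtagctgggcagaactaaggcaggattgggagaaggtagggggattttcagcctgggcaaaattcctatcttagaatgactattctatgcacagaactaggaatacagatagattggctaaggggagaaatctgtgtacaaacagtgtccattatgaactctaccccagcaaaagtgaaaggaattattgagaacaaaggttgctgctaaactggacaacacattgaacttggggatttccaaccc
Psmb10, chr8:105938393-105938642, minus strand: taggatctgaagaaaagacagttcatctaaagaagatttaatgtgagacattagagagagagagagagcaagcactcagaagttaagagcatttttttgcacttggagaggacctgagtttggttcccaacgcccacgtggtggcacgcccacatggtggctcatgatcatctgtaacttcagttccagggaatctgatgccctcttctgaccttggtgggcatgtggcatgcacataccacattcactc
Bst2, chr8:71537473-71537722, minus strand: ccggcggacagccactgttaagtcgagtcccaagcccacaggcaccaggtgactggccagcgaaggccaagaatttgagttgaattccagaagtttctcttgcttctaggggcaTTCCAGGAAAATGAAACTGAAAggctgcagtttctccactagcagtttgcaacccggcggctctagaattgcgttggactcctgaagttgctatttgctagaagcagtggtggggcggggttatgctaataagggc
The GAS was searched as TTCNNNGAA, which reads the same on both strands, and the ISRE as GAAANNGAAA or TTTCNNTTTC, its other strand. The GAS of a promoter can share letters with its ISRE, as in Bst2, where the motifs start 136, 130 and 124 bases upstream. Irf8 held 2 GAS, 171 and 153 bases upstream, and no ISRE, and Ubd and Psmb10 held neither. A second Irf8 start in RefSeq, further downstream, also held neither. Over all 27025 genes with a promoter 3.99% had an ISRE and 9.55% a GAS, against 18 (43.9%) and 15 (36.6%) of the 41 genes. The 18 genes with an ISRE had a median difference of 0.04, with none called, and the 23 without one had a median of 0.02, with 3 called. A match of letters describes these windows only.

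Other genes of the pathway were counted from a list of 99 symbols, 88 of them in the tables. At an unadjusted p of at most 0.05 (limma), 10 were lower and 1 was higher in pKO mice, beside 5.35% and 4.2% of all genes. Of these, Socs3, Ikbke, Tlr7, Unc93b1, Trim25, H2-K1 and H2-Q4, and of the cell markers Itgam, Trem2 and Itgax, were on lists the study drew up from these mice. For Itgam and Itgax the study also reported lower eWAT levels in pKO mice by quantitative PCR over its whole cohort. In signalling, Socs3, an inhibitor of cytokine receptors, ran from 97.2 to 153 in WT mice and was 64.4, 64.2, 90.6, 50.3 and 96.2 in pKO mice 1 to 5, with no overlap (difference -0.76; limma, adjusted p = 0.28; exact permutation test, p = 0.0022). Ifnar2, the second chain of the type I receptor, ran from 816 to 983 in WT and from 597 to 830 in pKO mice. Its difference was -0.29 (limma, adjusted p = 0.49, and exact permutation test, p = 0.0043). In nucleic acid sensing, Ikbke, Tlr7 and Unc93b1, the chaperone that carries Tlr7 to endosomes, were lower, with differences of -0.58, -0.50 and -0.44. Their adjusted p was 0.37, 0.44 and 0.48 (limma), and the exact permutation test gave p = 0.022, 0.028 and 0.045. Trim25, which activates Ddx58, was higher by 0.65, although not by the exact permutation test (p = 0.074, with limma adjusted p = 0.47). Among further type I targets Ifi205 was lower by -1.33 at only 9.82 tags in WT mice (limma, adjusted p = 0.36, and exact permutation test, p = 0.0087). Among further gamma targets Ciita, the master regulator of class II antigen presentation, differed by -0.79, Nos2, which makes nitric oxide, by -0.79, and the class I genes H2-K1 and H2-Q4 by -0.54 and -0.44, each passing the unadjusted p. H2 genes resemble each other closely, so tags of H2-K1 and H2-Q4 may be shared with relatives. The class I light chain B2m differed by -0.06 and Cxcl9, a chemokine induced by interferon gamma, by 0.29, with neither past the test. The ligands Ifng and Ifnb1 were not analysed here.

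Irf8 is expressed by macrophages, dendritic cells and B cells, and some markers of macrophages and 1 listed for dendritic cells were lower with it. At the unadjusted p, 5.35% of all genes were lower in pKO mice and 4.2% were higher. Of 9 macrophage markers with values, 3 were lower in pKO mice at the unadjusted p (Itgam by -0.72, Cd14 by -0.46 and Trem2 by -0.91) and 8 of 9 had a difference below 0, with a median of -0.31. Emr1, which encodes F4/80, differed by -0.01 and Csf1r by -0.24. The summed macrophage markers ran from 4023 to 5856 in WT and from 3471 to 4784 in pKO mice. Of 8 dendritic cell markers, Itgax was called lower, by -0.90. The study used Itgax as a marker of inflammation and macrophage infiltration. Below 0 but not called were Clec9a at -0.73, Zbtb46 at -0.21 and Batf3 at -0.18. A further 4 had a difference above 0 (Xcr1 at 1.09, Flt3 at 0.25, Ccr7 at 0.11 and Cd209a at 0.08), and the median was -0.05. Sums of the 8, to which Itgax gave the largest share, ran from 843 to 1599 in WT and from 662 to 1110 in pKO mice. B cell markers summed to 190 to 290 in WT and 179 to 396 in pKO mice, with 0 of 5 called. The 10 T and NK cell markers, from the cells that make interferon gamma, had a median of -0.31, as the macrophage markers did. Of these 10, 7 were below 0 and 0 were called. They summed to only 82.0 to 202 in WT and 103 to 165 in pKO mice, with 3 of the 10 at 0 in some mouse. Some markers of other cells were higher in pKO mice at the unadjusted p. They were the mesothelial Krt19 (by 0.73, with ranges apart) and Msln (0.57) of 4 markers and the red cell Hba-a1 (0.78) of 2. The others were the endothelial Kdr (0.44) of 4, the fibroblast Dcn (0.37) of 4 and the neutrophil S100a9 (0.69) of 4. The last 3 lists also held markers that went the other way. Of the neutrophil markers, 3 were below 0 (S100a8 at -0.57, Cxcr2 at -0.21 and Csf3r at -0.20). So were 2 of the 4 endothelial markers (Pecam1 at -0.39 and Emcn at -0.20) and 2 of the 4 fibroblast markers (Col1a1 at -0.03 and Pdgfra at -0.0008). Plasmacytoid dendritic cell markers gave 0 calls of 3. Adipocyte markers gave 0 calls of 6 and summed to 656298 to 1066660 in WT and 701298 to 1090680 in pKO mice, and tags of the epididymis markers Adam7 and Defb20 summed to at most 56.0 in any mouse. The part of any of these cells in the lower values of Irf8, Ubd, Psmb10 and Zbp1 was not tested.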

How the data were processed

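The authors prepared SAGE libraries from eWAT RNA of 6 WT and 5 pKO mice and mapped tags with a modified SOLiD SAGE Analysis Software. The submitters' processing notes name mm10 and edgeR 3.2.3, and the gene annotation is not given in the sources used here. The deposited values per gene (a signal, tag counts divided by a size factor by the authors) were whole tags in 100% of values, within 0.02 of a whole number. Genotypes were compared with limma 3.58.1 (trend) on log2(value + 1) over all 15453 genes, with Benjamini-Hochberg adjustment and no filter, in R 4.3.3. On recovered tags, edgeR 4.0.16 called 693 genes lower and 681 higher at an unadjusted p of 0.05, and DESeq2 1.42.0 called 700 and 739. Exact permutation tests (two-sided) ran over all 462 splits of the mice. The members and lists were chosen with earlier results of these data known. Values by mouse are given for members past the unadjusted p or with ranges apart, the most abundant of each list, a fixed set (Irf7, Irf9, Stat2, Isg15, Psmb8, Psmb9, Psmb10, Ubd and Irf8) and members whose highest mouse exceeds 3 times the median of its genotype; others with values were chosen after these were seen. The fits were tested on simulated tags with known changes, which were larger than that of any member and placed in genes that were not scarce. Dispersion was the same in both genotypes. Smaller changes, scarce genes and unequal spread between genotypes were therefore not covered. Within-mouse ratios were added after the values were seen and are given as descriptions. Tags were predicted from GENCODE M21 transcripts and promoters taken from RefSeq, both on GRCm38, which is mm10. The labels give no batch. The effect of 22 alternative settings is given in the closing section.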

Additional observations from a re-analysis of the deposited data

Results flagged for a closer look

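For 7 genes 1 mouse stood far from the others of its genotype. In 104 groups examined (52 genes in 2 genotypes) 7 were found, 5 of them in WT and 2 in pKO mice, where chance alone gives about 5.2. Irf7 was 63.1 in WT mouse 4 against 265 to 368 in the other WT mice. The same mouse had the lowest Ifi44 of its group, 46.6 against 61.8 to 68.5. Irf9 was 584 in pKO mouse 5, with the other pKO mice at 318 to 382. Mx1 stood at 17.8 in WT mouse 6 and at 10.03 to 12.5 in the rest of that group. Isg15 was 24.04 in pKO mouse 1 and 10.3 to 12.2 elsewhere among pKO mice, which is a matter of few tags. In WT mouse 1 Usp18 reached 108, with 66.0 to 80.8 in the others, and Gbp5 reached 64.9, with 30.7 to 40.4 in the others.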

How the results depend on the processing

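Irf8, Ubd, Psmb10 and Zbp1 were called lower under each of 22 alternatives (2 scalings, 2 pseudocounts, a filter, 5 other fits, the replicate block and each mouse left out), and their direction did not change. Over these, the adjusted p ran from 0.077 to 0.59 for Irf8 and from 0.018 to 0.57 for Ubd. The count of members called lower was 4 to 6 when each mouse was left out in turn. The count called higher was 1 with edgeR and 1 with DESeq2 (Ifi44 in both), and ran from 0 to 3 with a mouse left out, reaching 3 (Irf1, Ifi44 and Rsad2) without pKO mouse 2. The count at an adjusted p of at most 0.1 was 2 with DESeq2 (Irf8 and Ubd), and ran from 0 to 2 with a mouse left out, the same 2 genes without pKO mouse 2, where that count over all genes rose from 5 to 106. DESeq2 gave 138 over all genes. The cause was not tested. Same-numbered mice did not deviate together (mean correlation -0.02, against 0.004 for different numbers), and with a replicate block, which leaves out WT mouse 6, 5 members were lower, Ifit3 being the addition, and 0 were higher. Medians with a mouse left out ran from 0.007 to 0.14 for type I targets, -0.03 to 0.12 for gamma targets and -0.11 to 0.08 for regulators. Of the members not called, 25 changed sign under some alternative. Scarce genes such as Oas1a, Mx1, Mx2, Isg15 and Xaf1 rested on few tags, and whether depth or spread between mice set their intervals was not tested.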
